A study of Mus musculus with 2 samples.

Results

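The 10 genes described here encode enzymes and cofactors that remove reactive oxygen species and lipid peroxides: Gpx1, Gpx4, Sod1, Sod2, Cat, Prdx1, Prdx2, Txn1, Txnrd1 and Gclm. They were chosen by name, as the rows of these symbols in both deposited expression tables, and all 10 were found among 14366 genes. Every one passed the minimum used below, a mean level of 5 CPM over both libraries, which 8886 genes reached. The values come from cultured mouse hematopoietic stem cells (HSC) given either vehicle or deferoxamine (DFO), a drug that binds iron.

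Superoxide dismutases convert superoxide to hydrogen peroxide. Hydrogen peroxide is then removed by catalase, by glutathione peroxidases, which spend glutathione, and by peroxiredoxins, which are recharged by thioredoxin and its reductase. Ferroptosis is an iron-dependent form of cell death in which peroxidised membrane lipids accumulate, and GPX4 is the enzyme that reduces those lipids in place. HSC are known for a low tolerance of reactive oxygen species, and many of these genes are known targets of the transcription factors NRF2 and FOXO3.

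The series holds 2 single-cell libraries, 1 per condition. Per the labels, bone marrow of 8 wildtype C57/B6 mice aged 6 to 8 weeks was pooled, and cells negative for lineage markers and CD48 and positive for Sca-1, c-Kit and CD150 were sorted. The sorted cells were cultured in medium that included 100 ng/ml SCF and Primocin and received sterile water or 10 µM DFO for 48 hours. Both groups share the pool, the medium and the culture time, and 20000 live cells of each entered the 3′ library preparation.

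The vehicle library held 8708 cells with a median of 27805.5 molecules (unique molecular identifiers) per cell and the DFO library 9852 cells with a median of 27114. The summed molecules came to 260938938 and 284326017, and the libraries shared 24 cell barcodes. Of 17 HSC markers, all had a row and 13 reached 5 CPM, while Fgd5, Hoxb5, Tek and Robo4 did not. The summed level of the HSC markers was 664 CPM with vehicle and 680 CPM with DFO. Of the 13, 6 were higher and 7 lower in DFO, with 1 higher and 2 lower by the size rule given below. Among all genes at 5 CPM or more, 1.4% were higher and 2.58% lower by that rule. The summed megakaryocyte markers were at 2144 CPM with vehicle and 1131 CPM with DFO, with Pf4 at 1447 and 592 CPM and 9 of 11 markers lower in DFO by the size rule given below. The median share of mitochondrially encoded molecules was 3.88% and 4.4%. With 1 library per condition no difference has a replicate check, so no p-value is given anywhere. Each level is in CPM, molecules of the gene after its library is scaled to 1000000 molecules, and carries an exact 95% Poisson interval that covers counting error only.

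Among the 10 enzymes, 3 are selenoproteins, in which the codon TGA, elsewhere a stop, is read as selenocysteine at the catalytic site. The lines below show that codon in capitals with the surrounding coding sequence, from the GENCODE M21 transcripts on GRCm38 (the build the submitters name mm10). They are shown because Gpx4, the gene of the 10 with the greatest difference between the libraries, belongs to this class.
Gpx1: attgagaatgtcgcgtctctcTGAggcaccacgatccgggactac
Gpx4: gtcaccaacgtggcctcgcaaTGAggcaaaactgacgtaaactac
Txnrd1: gacatcctccagtctggctgcTGAggt
Codon and exon numbers are those of the protein-coding transcript with the longest coding sequence of each gene. They can differ in other isoforms, and which isoform these cells express was not determined. In Gpx1 the codon is number 47 of 201 in exon 1 (chr9:108339451-108339453, plus strand). In Gpx4 it is number 129 of 253 in exon 3 (chr10:80054737-80054739, plus strand), and in Txnrd1 number 612 of 613 in exon 15 (chr10:82896037-82896039, plus strand), next to the end of the protein. The coding sequences of the other 7 genes hold 0 such codons in frame before the stop.

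Gpx4, the phospholipid hydroperoxide reductase, was lower in the DFO library. It lies on chr10:80047166-80056439 (plus strand, 7 exons). Its level was 436 CPM (433 to 438) in vehicle and 336 CPM (333 to 338) in DFO. The DFO library therefore held 23% less Gpx4 on this scale, and the intervals were far apart. On the scale used throughout, log2((DFO CPM + 1)/(vehicle CPM + 1)), the difference was -0.38 (-0.39 to -0.36). Of the 8886 genes, 98.6% had a smaller absolute difference.

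Gpx1, the abundant cytosolic glutathione peroxidase that reduces hydrogen peroxide, lies on chr9:108338903-108340343 and has 2 exons. It was at 991 CPM (988 to 995) in vehicle and 1016 CPM (1012 to 1020) in DFO, a difference of 0.035. When both libraries were given the same cluster shares the difference was -0.0024, so no direction is assigned to it. The 2 glutathione peroxidases thus stood apart from each other, with only Gpx4 clearly different between the libraries.

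Gclm encodes the modifier subunit of glutamate-cysteine ligase, which makes the first intermediate of glutathione and so feeds both peroxidases. It was at 352 CPM (350 to 354) in vehicle and 368 CPM (366 to 371) in DFO, a difference of 0.065. Gclm was 4.6% higher in DFO, a small difference whose intervals did not overlap.

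The superoxide dismutases differed little. Sod1, the cytosolic copper and zinc enzyme, was at 65.9 CPM (64.9 to 66.9) in vehicle and 62.7 CPM (61.8 to 63.6) in DFO, a difference of -0.071. Sod2, the manganese enzyme of the mitochondrial matrix, was at 227 CPM (225 to 228) in vehicle and 232 CPM (230 to 233) in DFO, a difference of 0.032. Cat, the peroxisomal catalase, was the least detected of the 10, at 43.4 CPM (42.6 to 44.2) in vehicle and 41.9 CPM (41.1 to 42.6) in DFO. Its difference was -0.051, and its intervals touched.

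Prdx1 and Prdx2 encode cytosolic peroxiredoxins of the same type, and they lay on opposite sides of 0. Prdx1 (chr4:116685544-116700822) was at 1094 CPM (1090 to 1098) in vehicle and 1215 CPM (1211 to 1219) in DFO, which is 11.1% higher. Its difference of 0.15 exceeded in absolute size that of 84.6% of the 8886 genes. Prdx2, known for its abundance in red cells, was at 322 CPM (320 to 324) in vehicle and 307 CPM (305 to 309) in DFO, a difference of -0.068. Prdx1 was thus the second of the 10 by size of difference, in the direction opposite to Gpx4.

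Txn1, the thioredoxin that returns electrons to both peroxiredoxins, was at 954 CPM (951 to 958) in vehicle and 1001 CPM (997 to 1005) in DFO, a difference of 0.069. Txnrd1, the cytosolic reductase of thioredoxin and the third selenoprotein of the set, was at 115 CPM (114 to 116) in vehicle and 118 CPM (117 to 119) in DFO, a difference of 0.036. Both were slightly higher in DFO, and their intervals did not overlap between the libraries.

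The other genes lie at chr16:90220754-90226329 (Sod1, 5 exons), chr17:13006846-13040063 (Sod2, 5 exons), chr8:84969587-84974834 (Prdx2, 6 exons), chr10:82833951-82897712 (Txnrd1, 15 exons) and chr3:122245557-122270732 (Gclm, 7 exons) on the plus strand. Cat (chr2:103453849-103485160, 13 exons) and Txn1 (chr4:57943373-57956411, 5 exons) are on the minus strand. Txnrd1 overlaps Eid3, and Gclm the pseudogene Gm6061, on the same strand. Sod1 overlaps Scaf4, and Prdx2 both Junb and Rnaseh2a, on the other strand. Sod1 also has a pseudogene copy, Gm8566, that matches its 3′ end at 97.87% over 328 bases, and the last bases of Sod2 hold a stretch shared with 4 other genes. How reads of shared stretches were assigned, and whether counting used strand, are points not given in the sources used here.

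**Figure D1:**
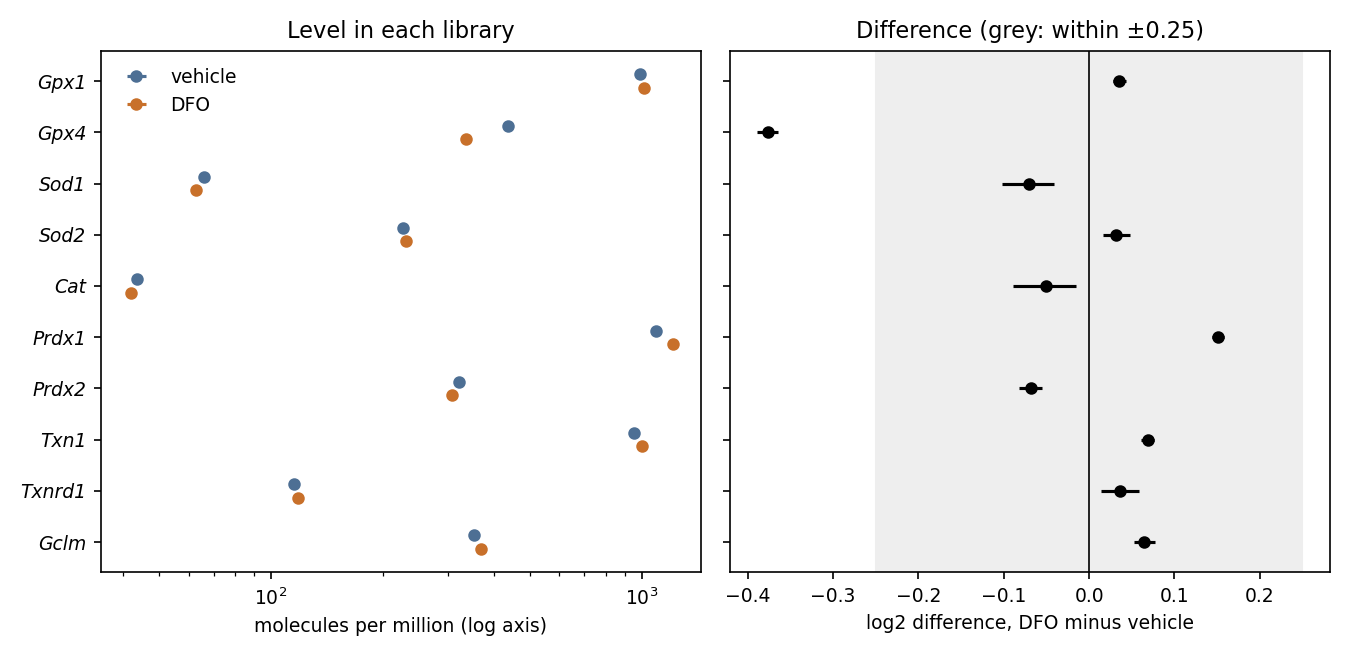
Levels of the 10 genes in the vehicle and DFO libraries in CPM on a log axis (left) and the log2 difference, DFO minus vehicle (right), with bars for exact 95% intervals of counting error. Gpx4 is the only point outside the grey band of ±0.25, at -0.38, and Prdx1 is the rightmost at 0.15.

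A difference was counted as large at an absolute log2 value of 0.25 or more, which is 1.19-fold. By that rule 0 of the 10 genes were higher in DFO and 1, Gpx4, was lower. Among the 8886 genes 1.4% were higher and 2.58% lower, 3.97% in either direction. The Poisson intervals did not overlap for 9 of the 10 genes, all but Cat, against 54.2% of the 8886 genes. Intervals narrow as a gene becomes more abundant, and 5 of the 10 genes rank at place 396 or higher of the 8886 by mean level. The median difference of the 10 was 0.033 and that of all genes 0.019. The mean of the 10 was -0.018, opposite in sign to their median because of Gpx4. As a list, then, these genes lay near the centre of all genes, with 6 above 0 and 4 below. Among the 8886 genes 5144 were above 0 and 3742 below.

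**Figure D2:**
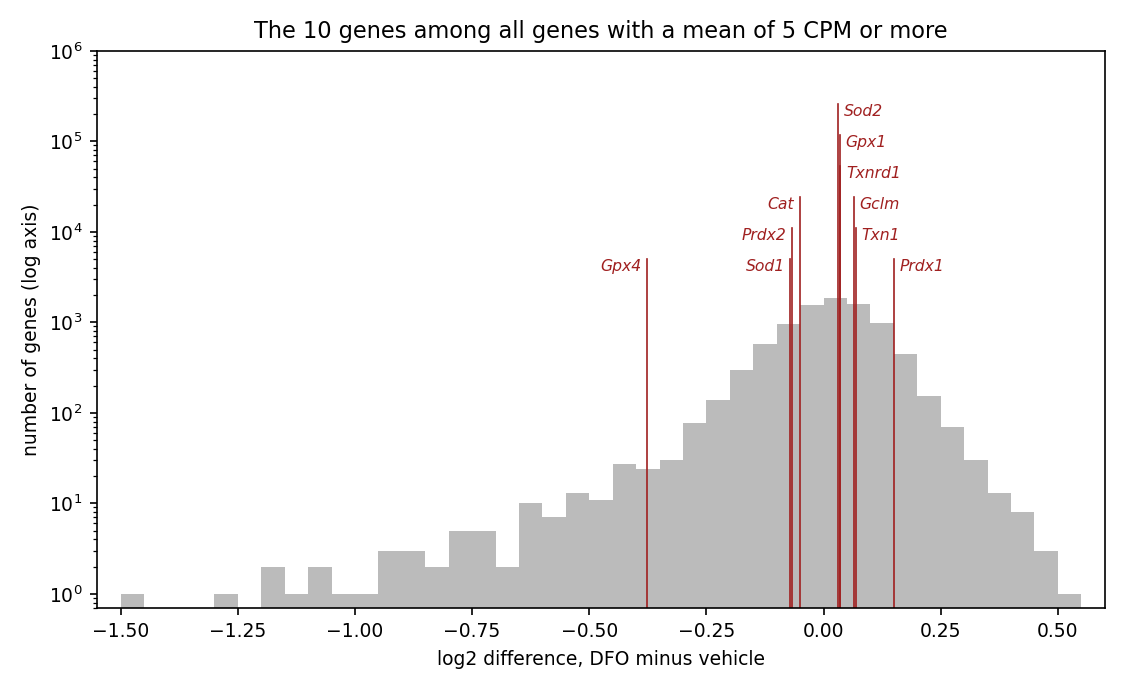
Number of genes on a log axis by log2 difference, DFO minus vehicle, for the 8886 genes at or above a mean of 5 CPM, in steps of 0.05, with a vertical line for each of the 10 genes (line heights only separate the labels). Gpx4 lies in the lower tail at -0.38 and the other 9 lie between -0.071 and 0.15.

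Some features were measured beside the Gpx4 value. The share of megakaryocyte-like cells, described below, was 19.5% of vehicle and 13.7% of DFO cells, and Gpx4 was above its library average in those cells. With equal cluster shares in both libraries its difference was -0.34. The last 400 bases of the Gpx4 transcript match a copy annotated as Gpx4-ps2 at 99.75% identity over 400 bases, and a second copy at 95.95% over 173 bases. The copies were not analysed here, so the level of Gpx4 is uncertain to the extent that reads were divided between these loci, which was not tested. Gpx4 has a short and GC-rich transcript, 995 bases with 60.2% G or C. The 627 genes in its bin of GC content and length had a median difference of -0.019, Gpx4 stood at -0.36 after that median was subtracted, and 3.03% of the bin lay below it. Without cells above 10% mitochondrial molecules or under 1000 genes its difference was -0.38. Over the main and all 13 alternative settings it ranged from -0.40 to -0.34.

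Across those 13 alternatives and the main setting the values of the other genes moved little. Prdx1 ranged from 0.11 to 0.17, Gclm from 0.045 to 0.097, Txn1 from 0.038 to 0.073 and Txnrd1 from 0.0031 to 0.077. Sod2 ranged from 0.0090 to 0.058, Sod1 from -0.11 to -0.062, Cat from -0.081 to -0.041 and Prdx2 from -0.11 to -0.058. Among the 10 genes, only Gpx1 took values on both sides of 0, from -0.0024 to 0.054.

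To give the levels by lineage state, all cells were clustered without the 10 genes, and 9 clusters were obtained. Of these, 4 could be named from marker genes. Cluster 2 was megakaryocyte-like (led by Serpinb2, Cavin2, Tesc, Serpine2 and Pf4), with 1701 vehicle and 1345 DFO cells. Cluster 5 was HSC-like (AA467197, Sult1a1, Pdcd1, Wfdc2 and, in its leading 10, Procr), with 1090 and 1033 cells. Cluster 6 was erythroid-like (Trnp1, Tspan33, Siglecf, Cpa3 and Aqp1, with Klf1 in its leading 10), with 583 and 315 cells. Siglecf and the mast cell gene Cpa3 stand among its leading genes. Its summed erythroid markers were at 1186 CPM in vehicle, below the 1389 CPM of HSC-like cluster 5. Its summed megakaryocyte markers were at 2643 CPM in vehicle, so the name erythroid-like describes a mixed set. Cluster 8 was neutrophil and monocyte-like (Mpo, Ctsg and Elane), with 92 and 85 cells. Clusters 0, 1, 3 and 4 had no name by the marker rule; cluster 0 was led by the mitosis genes Fam83d, Nusap1 and Ube2c. Cluster 7 also stayed unnamed and was shallow, with a median of 6966 molecules, 2517.5 genes and 6.84% mitochondrial molecules per cell, and 420 vehicle and 478 DFO cells.

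The glutathione genes did not share a lineage pattern. Gpx1 was lower in megakaryocyte-like cells, with 699 CPM against 1161 CPM in HSC-like cells of the vehicle library and 702 against 1153 CPM in the DFO library. On the log2 scale, megakaryocyte-like minus HSC-like, this is -0.73 and -0.72. Gclm was placed the other way, at 431 CPM in megakaryocyte-like and 256 CPM in HSC-like vehicle cells and at 455 and 274 CPM in DFO, which is 0.75 and 0.73. Gpx4 was also higher in megakaryocyte-like cells, at 489 against 420 CPM in vehicle and 377 against 332 CPM in DFO, or 0.22 and 0.18. The DFO level of Gpx4 in megakaryocyte-like cells was thus below its vehicle level in HSC-like cells.

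The thioredoxin genes divided as well. Prdx2 had the lowest value of the 10 in this contrast. Megakaryocyte-like cells held 234 CPM against 411 CPM in HSC-like cells of the vehicle library, and 227 against 381 CPM in the DFO library (-0.81 and -0.74). Unnamed clusters 3, 1 and 0 of the vehicle library lay nearer to the HSC-like level, at 381, 371 and 355 CPM. Clusters 8, 6 and 4 followed at 332, 332 and 301 CPM. The contrast therefore describes low Prdx2 in megakaryocyte-like cells and not a level particular to HSC-like cells. Txn1 was highest in unnamed cluster 1 of the vehicle library, at 1079 CPM, with an interval overlapping that of HSC-like cluster 5. It was also lower in megakaryocyte-like than in HSC-like cells, with 826 against 1063 CPM for vehicle and 831 against 1101 CPM for DFO (-0.36 and -0.40). Txnrd1, its reductase, went the other way, from 89.7 CPM in HSC-like to 138 CPM in megakaryocyte-like vehicle cells and from 96.3 to 147 CPM in DFO (0.62 and 0.60). Prdx1 was nearly level between the 2 states, at 1097 and 1055 CPM in vehicle and 1225 and 1137 CPM in DFO (-0.057 and -0.11).

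Sod2 was higher in megakaryocyte-like cells, at 267 against 203 CPM in vehicle and 287 against 212 CPM in DFO (0.39 and 0.44). Sod1 and Cat were slightly lower there, by differences of -0.18 and -0.17 for Sod1 and of -0.16 and -0.13 for Cat. The direction of Cat did not hold at clustering resolution 1, where it was at -0.040 in vehicle and 0.034 in DFO. By the 0.25 rule, in both libraries, 3 of the 10 genes were higher in megakaryocyte-like cells (Gclm, Txnrd1 and Sod2) and 3 were lower (Prdx2, Gpx1 and Txn1). At resolution 1 Gpx4 also passed in both libraries, at 0.38 and 0.29, which makes 4 higher. These shares are near the background, since 29.6% of 8911 genes were higher and 27.2% lower in vehicle, and 28.9% of 8919 genes were higher and 25.4% lower in DFO. The order of the 10 genes by this contrast was the same at both ends in the 2 libraries, with Gclm highest and Prdx2 lowest. HSC-like cells were shallower than megakaryocyte-like cells, with medians of 21507 and 32603 molecules. With every cell thinned to 10000 molecules, each of the 10 contrasts kept its sign in both libraries.

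**Figure D3:**
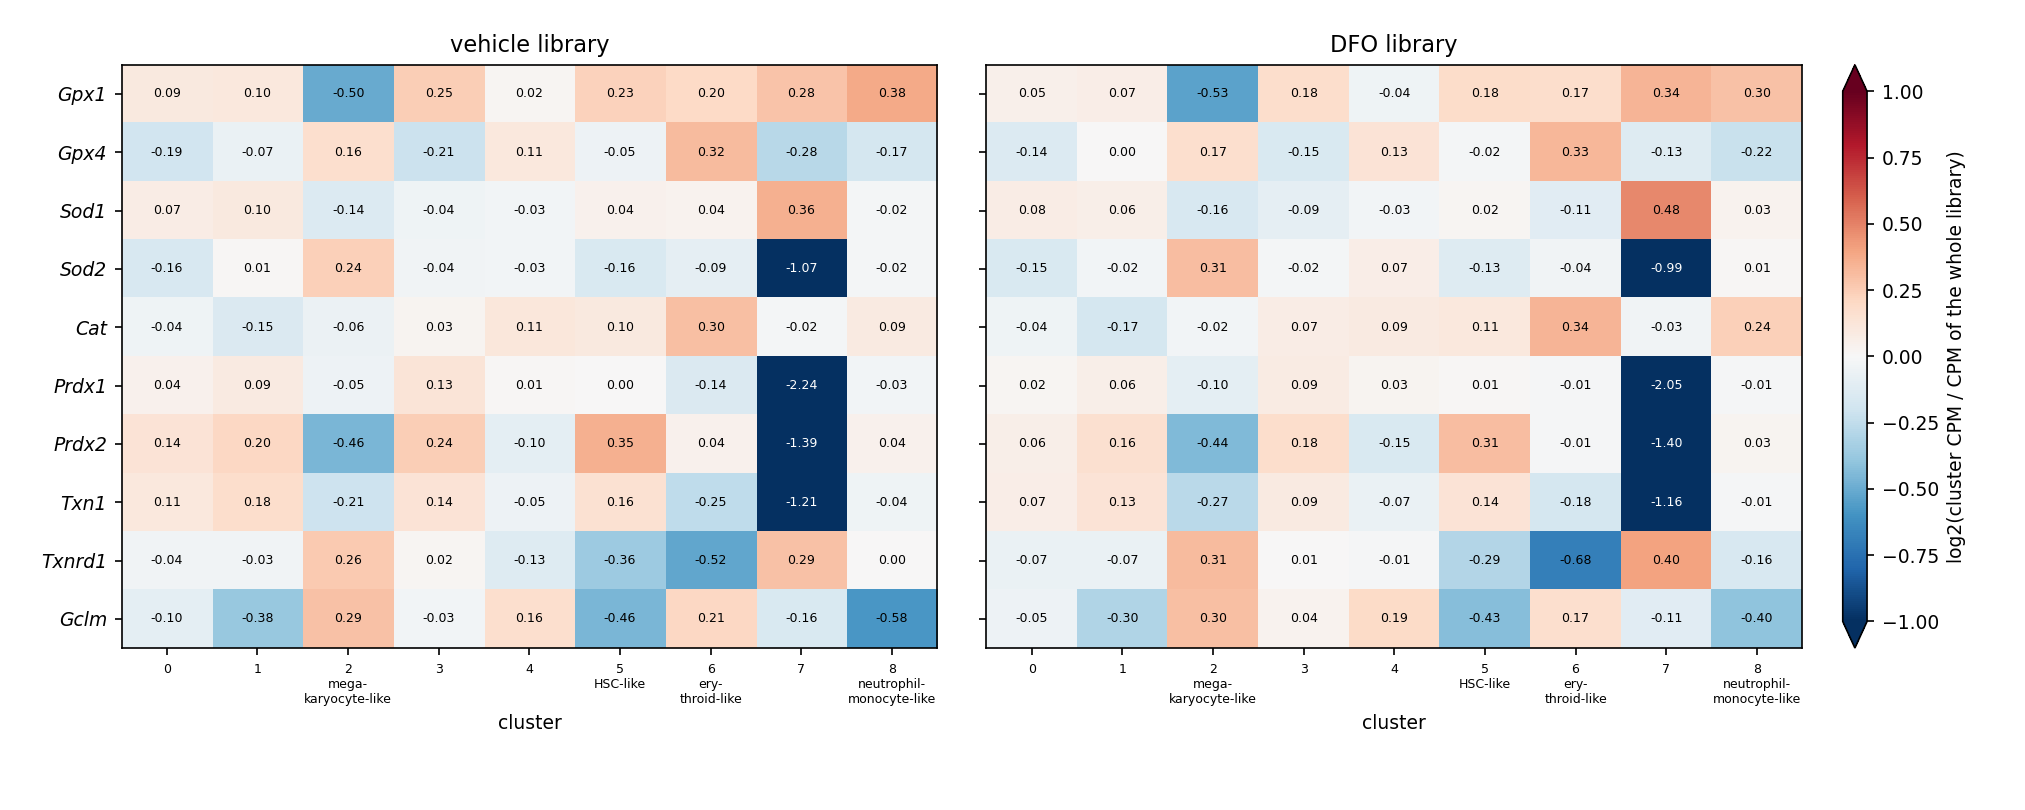
Level of each gene in each of the 9 clusters as log2 of the cluster's CPM over the CPM of the whole library, for the vehicle (left) and DFO (right) libraries, with red for above and blue for below the library's level. Prdx2 and Gpx1 are low and Gclm and Txnrd1 high in megakaryocyte-like cluster 2, and shallow cluster 7 is low in Prdx1, Prdx2, Txn1 and Sod2.

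Over all 9 clusters the order of the levels differed from gene to gene. Gpx4 was highest in the mixed, erythroid-like cluster 6, at 544 CPM with vehicle and 423 CPM with DFO, followed by megakaryocyte-like cluster 2. Neighbours 8, 0, 3 and 7 at the low end of the vehicle order had overlapping intervals. Cat was also highest in cluster 6, at 53.3 and 53.1 CPM, but all 8 pairs of neighbours overlapped in its vehicle order, so its order carries little information. Gclm was highest in cluster 2 in both libraries, and lowest in cluster 8 in vehicle (235 CPM) and in cluster 5 in DFO (274 CPM), 2 clusters whose intervals overlapped. Txnrd1 was lowest in cluster 6 in both libraries (80.2 and 73.5 CPM) and high in clusters 7 and 2, which overlapped. Gpx1 was lowest in cluster 2 in both libraries.

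The shallow cluster 7 stood apart for 4 genes. Prdx1 was at 231 CPM there in vehicle and 293 CPM in DFO, while the other 8 clusters lay between 990 and 1196 CPM in vehicle and between 1137 and 1289 CPM in DFO. The highest cluster exceeded the lowest 5.17-fold in vehicle with cluster 7 and 1.21-fold without it. For Prdx2 the ratio was 3.35 with and 1.75 without cluster 7, for Txn1 2.61 and 1.35, and for Sod2 2.47 and 1.32. Cells of this cluster were shallow and rich in mitochondrial molecules, and the part of either in these levels was not tested. The median ratio over all 8886 genes was 2.03 with cluster 7 and 1.51 without it. Without the shallow cluster, Prdx1 (1.21) and Sod1 (1.18) were therefore among the more even of the 10 in vehicle, and Gpx1 (1.84) and Gclm (1.84) the most uneven. Gpx1 and Sod1 were not low in cluster 7: Gpx1 was second highest there in vehicle, and Sod1 highest at 84.4 CPM.

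Within the clusters the DFO and vehicle cells were then compared again. Gpx4 was lower in DFO in 9 of 9 clusters, with differences from -0.42 to -0.22. It was at 420 CPM with vehicle and 332 CPM with DFO in the HSC-like cluster, at 489 and 377 CPM in the megakaryocyte-like, at 544 and 423 CPM in the erythroid-like and at 386 and 288 CPM in the neutrophil and monocyte-like cluster. The smallest difference was that of shallow cluster 7, from 359 to 307 CPM, and it was the 1 cluster of 9 that missed the 0.25 rule. The share of all genes lower by that rule was 1.4% in cluster 0, 1.61% in 1, 3.03% in 2, 2.42% in 3, 4.2% in 4, 3.84% in 5, 10.5% in 6, 10.6% in 7 and 15.5% in 8, highest in the 3 smallest clusters. The Poisson intervals of Gpx4 were apart in all 9 clusters. Those of all genes were apart for 25.4% in cluster 0, 18.8% in 1, 32.6% in 2, 16.5% in 3, 28.4% in 4, 17.1% in 5, 10.6% in 6, 6.22% in 7 and 4.75% in 8. Megakaryocyte markers moved within the clusters as well. Their summed level was lower in DFO in all 9, from 5904 to 3798 CPM in the megakaryocyte-like cluster and least in cluster 3, from 540 to 510 CPM. Pf4, the platelet factor, differed by -1.49 to -0.45, with intervals apart in all 9 clusters. Their part in the Gpx4 difference within clusters was not tested.

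Prdx1 was higher in DFO in 9 of 9 clusters, with differences from 0.11 to 0.34 and no overlap of intervals. Only 2 clusters passed the 0.25 rule, cluster 7 at 0.34 and erythroid-like cluster 6 at 0.29, where Prdx1 was at 990 CPM with vehicle and 1208 CPM with DFO. In those clusters 15.8% and 9.06% of all genes were higher by the same rule, and in clusters 0 to 5 and 8 the shares were 1.06%, 1.2%, 4.48%, 2.19%, 3.52%, 3.58% and 18.1%. In HSC-like cells Prdx1 was at 1097 and 1225 CPM, and in megakaryocyte-like cells at 1055 and 1137 CPM. The Prdx1 difference was thus small in most clusters. Shares of all genes with intervals apart are given above by cluster, and the count of clusters is not read as a result.

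Another 3 genes lay on 1 side of 0 in all 9 clusters. Gclm was higher in DFO by 0.026 to 0.248, with intervals that did not overlap in 7 clusters. Txn1 was higher by 0.0096 to 0.15, without overlap in 4 clusters. Prdx2 was lower, from -0.15 to -0.048, without overlap in 6 clusters. None of these passed the 0.25 rule in any cluster. Sod2 was higher in 8 clusters and Txnrd1 in 7, Sod1 and Cat were lower in 8, and each of these 4 had intervals apart in at most 2 clusters. Gpx1 was higher in 4 clusters and lower in 5, with intervals apart in 3, of which 1 was higher and 2 lower. The share of all genes on 1 side of 0 in all 9 clusters was not computed. No such count, also of Gpx4 and Prdx1, is therefore read as a result. All 9 clusters come from the same 2 libraries and do not replicate each other. Intervals of all genes were apart for 4.75% to 32.6% by cluster, and intervals narrow as a gene becomes more abundant.

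**Figure D4:**
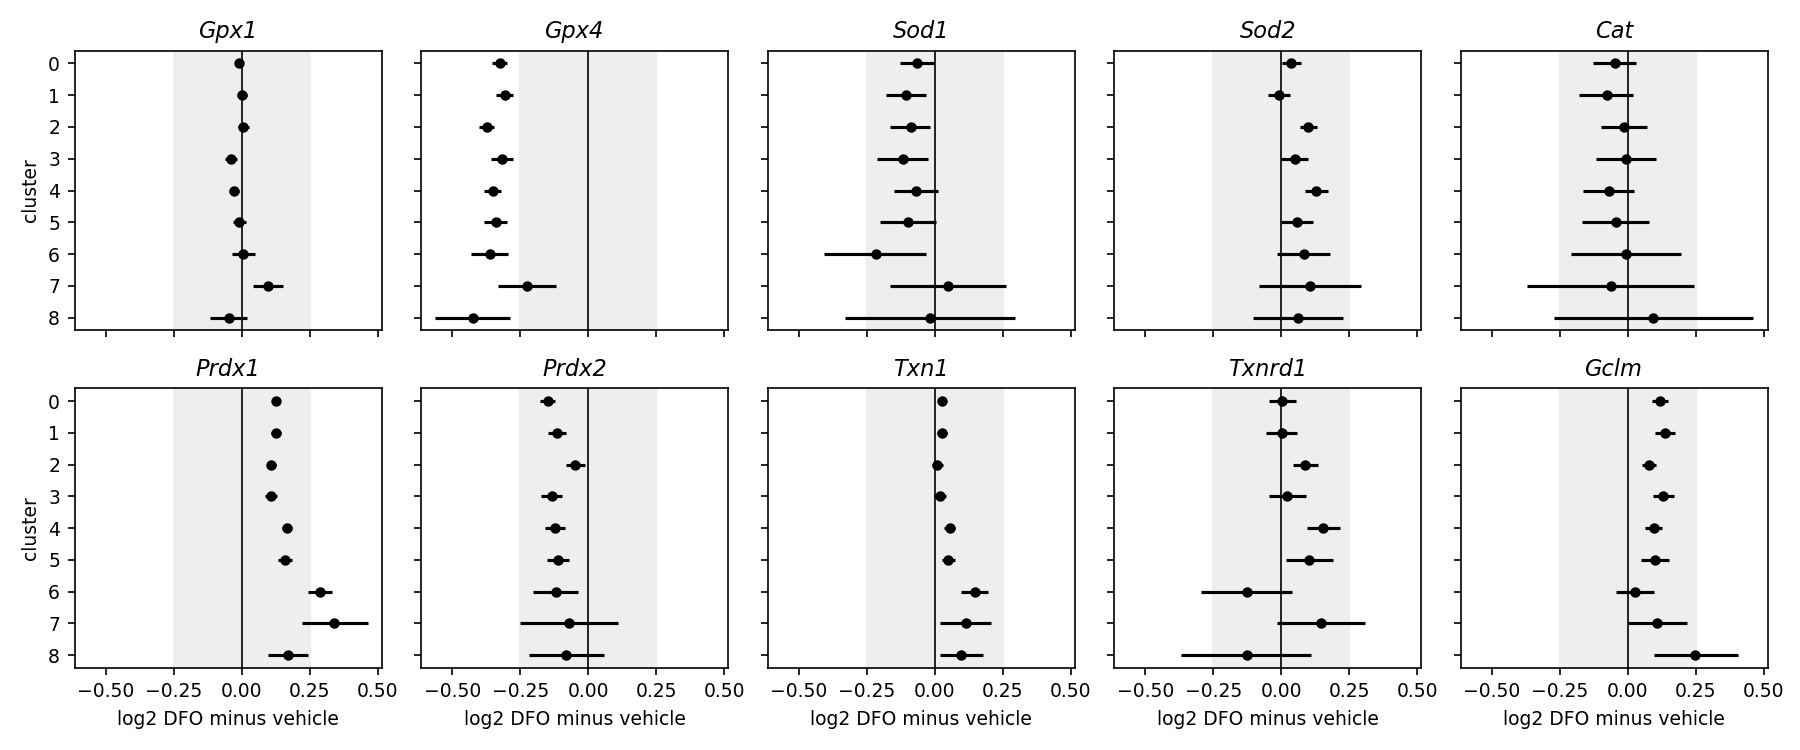
Log2 difference, DFO minus vehicle, of each gene within each of the 9 clusters (vertical axis: cluster number), with bars for exact 95% intervals of counting error and a grey band at ±0.25. Gpx4 lies left of 0 in all 9 clusters, from -0.42 to -0.22, and Prdx1 right of 0, from 0.11 to 0.34.

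The pooled mice were of both sexes, which the cells show by Xist and Y-linked molecules, and this gives 2 sets of mice within each library. In female cells (4751 vehicle, 5251 DFO) Gpx4 was at 432 CPM with vehicle and 332 CPM with DFO. In male cells (2767 vehicle, 3266 DFO) it was at 443 and 339 CPM. The differences were -0.38 and -0.39, while 4.51% and 4.4% of all genes passed the 0.25 rule in female and male cells. The Prdx1 difference was 0.15 among female and 0.14 among male cells. All 10 genes had the same sign in both sexes, with Sod2 nearest to 0 in male cells at 0.0090. The share of all genes with the same sign in both sexes was not computed, so this count is not read as a result. Male and female cells shared each culture and library, so they do not replicate the treatment.

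Per cell, counts were compared after thinning each cell to 10000 molecules, which left 8357 vehicle and 9419 DFO cells. Gpx4 had a median of 4 molecules in vehicle and 3 in DFO and means of 4.38 and 3.37. At least 1 molecule was found in 98.2% of vehicle and 95.8% of DFO cells, and the 25th, 75th and 95th percentiles were 3, 6 and 8 in vehicle and 2, 5 and 7 in DFO. Each of these points lay 1 molecule lower in DFO, and the 5th percentile was 1 in both. Prdx1 had medians of 11 and 12 and means of 10.9 and 12.2. The variance over the mean, which is 1 for random sampling alone, was 1.20 and 1.10 for Gpx4 and 1.00 and 1.01 for Sod1. It was highest for Gpx1 (1.58 and 1.51) and Gclm (1.53 and 1.5), which also had the widest spread over clusters in vehicle once cluster 7 was left out. For a given relative spread between cells, the variance over the mean rises with the mean count. In vehicle that count ran from 0.45 (Cat) to 10.9 (Prdx1), so the genes are not ranked by relative spread here. Values near 1 at low counts, such as those of Sod1, therefore say little. Between genes, correlations over cells were weak: the highest Spearman rho was 0.17 for Prdx1 with Txn1 in vehicle and the lowest -0.090 for Gpx1 with Sod2 in DFO.

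**Figure D5:**
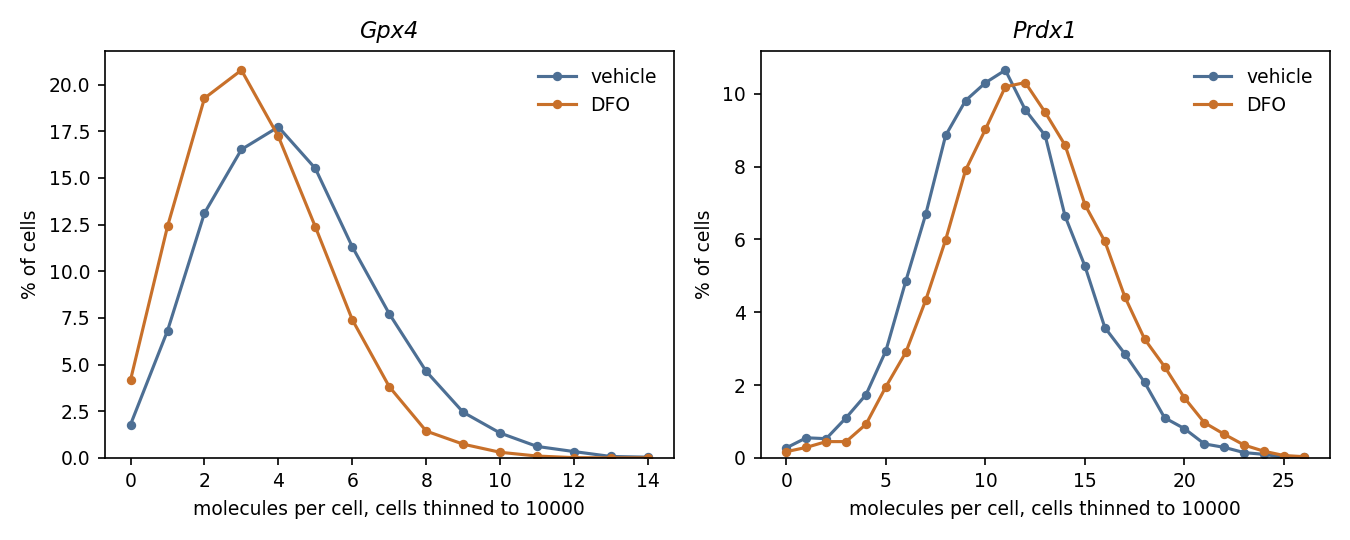
Share of cells in % by number of Gpx4 (left) and Prdx1 (right) molecules per cell, in cells thinned to 10000 molecules, for the vehicle and DFO libraries. The Gpx4 curve of DFO is shifted to lower counts (median 3 against 4) and the Prdx1 curve to higher counts (12 against 11).

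The thinned cells were also called by cycle phase from S and G2/M genes. Gpx4 was at 454 CPM with vehicle and 348 CPM with DFO among G1 cells, at 460 and 353 CPM in S and at 425 and 328 CPM in G2/M. Prdx2 was highest in G1, at 412 CPM with vehicle and 394 CPM with DFO, and lowest in G2/M at 314 and 300 CPM. Txnrd1 ran the other way, from 72.5 and 80.0 CPM in G1 to 114 and 118 CPM in G2/M. Gpx4 was thus lower in DFO in each phase. G1 was the smallest class, with 731 vehicle and 535 DFO cells.

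The genes whose levels followed each of the 10 most closely were sought over 18 profiles, 9 clusters in 2 libraries. Gpx4 was closest to Rpl21, a ribosomal protein gene (Pearson r 0.88), Rusc1 (0.85) and Ilk (0.85), which themselves differed by -0.19, -0.13 and -0.23. Prdx1 was closest to Ndufc2 (0.997), a subunit of respiratory complex I, and to the proteasome genes Psma1 (0.996) and Psmb2 (0.995). Prdx2 was closest to Cbr1, Aamp and Pycard, and Txn1 to Hddc2, Capza2 and Zbtb8os. Gpx1 was closest to Rcsd1, Myb and Gm2a, Sod1 to Uri1, Snx5 and Ptpra, and Sod2 to Eif2s1, Snrpb and Cox5a. Cat was closest to Tcp11l2, Cox6b2 and Orai3, Txnrd1 to Tbrg4, Eif4g1 and Otud6b, and Gclm to Vamp5, Cpsf2 and Ints8. Many of these correlations lean on cluster 7: over the 16 profiles without it, the closest gene changed for 7 of the 10. It was then Arpp19 for Prdx1 (0.95), Cmtm7 for Gpx1 (0.98), Aff3 for Sod1 (0.87), Sdf2l1 for Sod2 (0.95), Pafah2 for Cat (0.92), Snx2 for Txn1 (0.97) and Tomm70a for Txnrd1 (0.95), while Gpx4 kept Rpl21 (0.93), Prdx2 kept Cbr1 (0.98) and Gclm kept Vamp5 (0.94). The profiles share their libraries and are given as a description.

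Other genes of these pathways were read from 9 lists holding 93 expressed genes besides the 10, some of them in more than 1 list. By the 0.25 rule 3 of the 93 differed (Mboat1, Alox5 and Blvrb), a share near the 3.97% of all genes, so nothing is read from the counts below for the lists. Among 7 genes of glutathione supply, 0 passed and the median was 0.10, with Gsr, the glutathione reductase, at 102 CPM with vehicle and 119 CPM with DFO (0.22) and Ggct at 0.19. Gss (-0.071) and Chac2 (-0.0023) were lowest. Slc7a11, the cystine importer, was at 1.02 and 1.15 CPM, below the minimum. Among 9 other glutathione peroxidases and transferases 0 passed and the median was -0.025, from Gstt2 (-0.17) and Gstm1 (-0.086) to Mgst3 (0.049) and Gstp1 (0.096). Of 17 further thioredoxin and glutaredoxin genes 0 passed, with a median of 0.070. Msrb2 (0.15) and Srxn1 (0.14), which repair oxidised methionine and peroxiredoxins, were highest and Prdx4 (-0.090) and Glrx2 (-0.080) lowest.

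The other defences against ferroptosis held 14 genes with a median of 0.036. Mboat1, a phospholipid acyltransferase, was the 1 that passed, at 9.51 CPM with vehicle and 12.1 CPM with DFO (0.32), and Mboat2 was next at 0.17. With equal cluster shares, a pseudocount of 10 or male cells alone, 0 of the 14 were higher by the rule. Coq8a (-0.17) and Gch1 (-0.040) were lowest. Of 11 drivers of ferroptosis 1 passed: Alox5, an arachidonate lipoxygenase, at 29.4 CPM with vehicle and 15.8 CPM with DFO (-0.85). Alox5 was also a leading gene of a megakaryocyte-like cluster when genes differing between the libraries were left out of the clustering. Megakaryocyte-like cells were 19.5% of vehicle and 13.7% of DFO cells, and their part in the Alox5 difference was not tested. Tfrc, the transferrin receptor that imports iron, was at 57.8 and 67.7 CPM (0.23 over all cells). Within clusters Tfrc was higher by 0.12 to 0.41 and passed the rule in 6 of 9. In those clusters 1.06% (cluster 0) to 9.06% (cluster 6) of all genes were higher by the rule. With cells weighted equally, equal cluster shares, male cells alone or thinning, 1 of the 11 drivers, not identified here, was higher by the rule. Cyb5r1 was also at 0.23 and Sat1 at -0.15, and the median of that list was 0.045 against a mean of -0.028. Among the checks on iron, Fth1, the ferritin heavy chain, was at 3261 CPM with vehicle and 3246 CPM with DFO.

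Of 17 NRF2 regulators and targets 1 passed, Blvrb, a biliverdin reductase, at 60.6 CPM with vehicle and 48.9 CPM with DFO (-0.30). With equal cluster shares 0 of the 17 were lower by the rule, and 2 were with cells weighted equally, either other scaling, a pseudocount of 0.1, male cells alone or thinning. Gsr (0.22) and Nqo1 (0.14) were highest and Hmox1, heme oxygenase, was second lowest at 7.12 and 5.89 CPM (-0.24). The median was 0.027 and the mean -0.016. All 5 subunits of the superoxide-producing oxidases with a level were below 0, from Cyba (211 and 180 CPM, -0.23) and Ncf1 (-0.13) to Ncf4 (-0.016), and 0 passed. Among all 8886 genes 3742 were below 0, and nothing is read from this small count. Of 7 FOXO and stress sensor genes 0 passed, with a median of 0.011, Sesn3 (0.12) and Atm (0.070) highest and Foxo3 (-0.17) and Bnip3 (-0.16) lowest. Of 9 genes for selenoprotein synthesis 0 passed, with a median of -0.0035, Pstk (0.16) and Trnau1ap (0.13) highest and Trit1 (-0.075) and Sephs2 (-0.073) lowest. The 9 list medians ran from -0.071 to 0.10, with that of all genes at 0.019.

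Prdx1, Txnrd1 and Gclm are textbook targets of NRF2, whose binding element contains TGACNNNGC. That 9-base core was searched on both strands in the RefSeq promoters of GRCm38.p6, from 250 bases before to 50 after each start, to show where the sequence stands in the 10 genes. It was found in 4 of the 10 genes (40%), in 17% of the 10775 genes with a row in the tables and in 14% of all 27025 genes searched. All 4 matches are on the minus strand and read GCNNNGTCA on the plus strand, shown in capitals.
Sod1: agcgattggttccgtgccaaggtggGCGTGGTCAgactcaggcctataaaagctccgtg
Prdx1: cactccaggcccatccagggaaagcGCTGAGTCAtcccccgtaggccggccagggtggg
Txnrd1: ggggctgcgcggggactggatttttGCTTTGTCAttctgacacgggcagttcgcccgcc
Gclm: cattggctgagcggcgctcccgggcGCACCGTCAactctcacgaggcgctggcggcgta
The windows lie at chr16:90220681-90220739, chr4:116685441-116685499, chr10:82859089-82859147 and chr3:122245398-122245456, all on the plus strand, and the matches begin 56, 133, 92 and 134 bases before a start. Of these genes, Prdx1 (0.15), Gclm (0.065) and Txnrd1 (0.036) were above 0 and Sod1 (-0.071) below. Of the 6 genes without a match, Txn1 (0.069), Gpx1 (0.035) and Sod2 (0.032) were above 0 as well, and Cat (-0.051), Prdx2 (-0.068) and Gpx4 (-0.38) below, so 3 of the 6 genes above 0 held the motif. A match describes the letters only, and no binding was measured.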

How the data were processed

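The authors deposited, for each of the 2 libraries, a table of natural log values per gene and cell, without header lines on how they were made. Cell Ranger 3.0.2, Trim Galore 0.6.5, FastQC 0.11.9 and the build mm10 are named in the submitters' processing notes, with no settings. The deposited natural log values were back-transformed and divided by the smallest value of their cell. That smallest value was taken as 1 molecule, or as a small whole number of molecules where 1 did not give whole multiples. Every value was then a whole number of molecules within 0.05. These were summed per library or cluster (1 library per group, no test) and compared as log2 CPM with a pseudocount of 1, among genes whose mean level reached 5 CPM. Poisson and ratio intervals are exact at 95% and cover counting error only. The calculation was run on simulated Poisson counts with known folds. These held no variation between cultures or libraries, so that run checks the arithmetic only.

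All deposited cells were used. Clustering took the 2000 most variable genes (leaving out the 10 genes, genes of S phase and G2/M, ribosomal protein genes and mitochondrial genes), 30 principal components, 15 neighbours and Leiden resolution 0.5, seed 0. Names required at least 3 detected markers of a type, at least 1 marker among the cluster's leading 10 genes, and no other such type ahead. Types that did not meet these conditions were not compared and could have a higher mean log2 fold. In cluster 6 the mast and basophil markers were at 2.00 from 1 detected gene, against 1.05 for erythroid markers. In cluster 5 the macrophage and dendritic markers were at 1.10 from 1 detected gene, against 0.59 for HSC markers. Leading genes are those with the highest fold over the remaining cells, if found in 10% of the cluster's cells. Scrublet's automatic calls (3 and 2 cells) did not work here. As an alternative, cells with molecules of both sexes or in the top 8% of scores, 820 and 925 cells, were left out. Thinning left out 351 and 433 shallower cells.

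The 10 genes, the lists and the markers were chosen with earlier results of these data known. Of each list the 2 highest and 2 lowest genes are named, for each of the 10 the 3 genes most correlated over cluster profiles, and as checks Tfrc, Fth1, Hmox1, Pf4, Procr and Ly6a. Procr was at 5.17 and 5.75 CPM and Ly6a at 83.9 and 111 CPM. These 2 HSC markers were higher in DFO, while 7 of the 13 HSC markers at 5 CPM or more were lower. Genes listed without a row in the tables (such as Cybb and Alox15) were not analysed here. A further medium component and 1 gene that the naming rule selects are not reported here. Software was Python 3.11.15, scanpy 1.11.5 with leidenalg 0.10.2, scipy 1.17.1 and BLAST 2.17.0. Alternatives changed how cells were combined, scaled, filtered, thinned or clustered, the pseudocount, the size rule and the minimum level.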

Additional observations from a re-analysis of the deposited data

How the results depend on the processing

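Each of the 10 values kept its sign over all 13 alternatives, except Gpx1, which was -0.0024 with equal cluster shares. Gpx4 was the 1 gene past the 0.25 rule in each of them, and at a rule of 0.5 there were 0. Genes of the other lists past the rule numbered 3, against 2 with equal cluster shares, 2 with a pseudocount of 10, 2 at 20 CPM, 5 with cells weighted equally, 5 after thinning, 8 at a rule of 0.2 and 1 at 0.5. Over all genes 353 passed, against 148 with a pseudocount of 10, 220 with equal cluster shares, 645 at 0.2, 60 at 0.5, 631 with no minimum level and 155 at 20 CPM. Reversed values were small. At resolution 1 they were Gpx1 (-0.0055) and Cat (0.016) within megakaryocyte-like cells, Txnrd1 within HSC-like cells (-0.018) and the DFO lineage contrast of Cat (0.034). Clustering without differing genes gave Gpx1 0.0087 and Txnrd1 -0.031 within HSC-like cells. Thinning gave Gpx1 0.0043 within HSC-like and Cat 0.034 within megakaryocyte-like cells. The cause was not tested. Resolution 0.25 had no HSC-like cluster and gave no value, and allowing the 10 genes among the variable genes changed nothing, since none was variable enough. The lineage contrast of Gpx4 ranged from 0.18 to 0.38 and so crossed the 0.25 rule.

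The GC content and length setting was chosen after seeing the data. No paired analysis was possible because each group has 1 library. Depth limits Sod1 and Cat most, with at least 1 molecule in 48.5% and 35.5% of thinned vehicle cells. Counting intervals leave out variation between cultures and library preparations.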

Other observations

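Since Gpx4 is a selenoprotein, the genes annotated with a selenocysteine in GENCODE M21 were read as a class. This list was chosen after the value of Gpx4 was seen. Of 24 annotated genes 20 had a row and 18 reached 5 CPM. Gpx4 was the 1 gene of the 18 past the 0.25 rule, and 0 were higher by that rule, against 2.58% lower and 1.4% higher of all genes. Since Gpx4 prompted the list, that count describes Gpx4 alone. Next lowest were Selenom, at 48.2 CPM with vehicle and 41.7 CPM with DFO (-0.20), and Selenop, the secreted selenium carrier (-0.20). The highest was Selenoi at 21.3 and 22.7 CPM (0.086). Selenow (427 and 420 CPM, -0.022) and Selenof (333 and 325 CPM, -0.034), of a level similar to that of Gpx4 or somewhat lower, were nearly equal in the libraries. The median of the 18 was -0.024, against 0.019 for all genes. Of the 18 genes 11 were below 0 and 7 above, against 3742 below and 5144 above among all 8886 genes.

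Over the 16 cluster profiles without the shallow cluster, some of the 10 genes ran against each other. Gpx4 and Prdx1 had a Pearson r of -0.82 and Sod2 and Prdx2 of -0.85, while Prdx2 and Gpx1 ran together at 0.81. The profiles of 1 library share their cells' culture, and Gpx4 and Prdx1 also differ between the libraries in opposite directions, so these values describe the profiles and carry no test.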
